A study of Mus musculus with 21 samples.

Results

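The genes for collagen chains, laminin chains and integrin subunits of mouse were taken by symbol, as every collagen alpha chain, laminin alpha, beta or gamma chain and integrin alpha or beta subunit, except Col4a1, Col4a2, Lama1, Lamb1 and Lamc1. This gave 76 genes of the 32285 listed in a retinoic acid (RA) time course and the same 76 of the 25239 listed in a Cyp26a1 knockout set. By role they were 11 chains of fibrillar collagens, 31 chains of other collagens, 8 laminin chains, 18 integrin alpha chains and 8 integrin beta chains. Of these, 36 in the time course and 31 in the Cyp26a1 set reached 1 TPM (a level scaled for gene length and to the same total in every library) in at least 3 libraries and were tested, among 13948 and 12848 genes tested in all.

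Collagens are secreted as triple helices of 3 alpha chains: fibrillar collagens form the cables of connective tissue, while others sit in basement membranes, bridge them to other matrix or span the cell membrane. Laminins are heterotrimers of 1 alpha, 1 beta and 1 gamma chain and are the main organisers of basement membranes, the sheets on which epithelia rest. Integrins are receptors made of 1 alpha and 1 beta subunit that bind these matrix proteins outside the cell and talin, kindlins and the actin cytoskeleton inside. In the peri-implantation embryo laminin secretion and beta1 integrins are needed to build the basement membrane between epiblast and primitive endoderm.

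Polyadenylated RNA was sequenced from 21 libraries of embryonic stem cells (ESCs), in 7 groups of 3. All cells had been grown on gelatin in serum with LIF and 2i, which here is 1 µM of the MEK inhibitor PD0325901 and 3 µM of the GSK3 inhibitor CHIR99021. In the time course, wild-type ESCs were taken at 0 h (ESC_0h), with LIF and 2i withdrawn for 12 h or 24 h in the absence of RA (noRA_12h, noRA_24h), or treated with 2 µM RA for 12 h or 24 h (RA_12h, RA_24h). The labels leave unclear whether LIF and 2i were also taken from these RA cells. The Cyp26a1 set held wild-type ESCs (Cyp26a1_WT) and ESCs with a knockout of Cyp26a1 (Cyp26a1_KO), an enzyme that degrades RA, all in 2 µM RA during 24 h without LIF or 2i. The labels name no line or clone and do not say whether replicates were separate cultures, so a p-value here reflects the scatter among the sequenced samples alone, part of which may be technical. Cells kept in LIF and 2i over the same hours were not among the groups, so that withdrawal and time in culture cannot be told apart.

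Aligned bases were estimated at 2.96 to 3.91 gigabases per time course library and 2.72 to 3.24 gigabases per library of the Cyp26a1 set. In each library 11928 to 13482 genes reached 1 TPM. All 6 ESC markers (Pou5f1, Sox2, Nanog, Sall4, Lin28a and Utf1) had a mean of at least 1 TPM in every group. Of 8 fibroblast markers, 2 to 4 had a mean of at least 1 TPM in a time course group and 0 to 3 a mean of 0. Their summed level was 12.1 to 20.3 TPM. Of 5 blood markers, 1 or 2 had a mean of at least 1 TPM in a time course group. The blood markers summed to 50.0 to 178 TPM, while 1 of them, Ptprc, stayed at or under 0.110 TPM in the time course. Summed markers of primitive and extraembryonic endoderm (8 genes, among them Gata4, Gata6 and Sox17) ran at 2.60 to 4.13 TPM in ESC_0h, 1.99 to 3.57 in noRA_12h, 20.7 to 24.6 in RA_12h, 2.80 to 2.96 in noRA_24h and 118 to 132 in RA_24h. They ran at 268 to 286 TPM in Cyp26a1_WT and 106 to 112 in Cyp26a1_KO, and none of the 8 had a mean of 0 in any group. In bulk RNA, fewer cells of a type and less RNA per cell cannot be told apart.

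The promoters of Col9a2, Col13a1 and Col6a5 are shown because these collagen genes had the largest rises with RA at 12 h. The sequences are from RefSeq (build GRCm38.p6), read 5′ to 3′ on the strand of the gene. The stretch of Col9a2 (chr4:121039316-121039384, plus strand) lies upstream of its first annotated exon base, and those of Col13a1 (chr10:61979109-61979358, minus strand) and Col6a5 (chr9:105960644-105960893, minus strand) are the 250 bases before the start. Capitals mark matches, on either strand, to TATAAA (the TATA motif), GGGCGG (a GC box) or AGGTCA (one copy of the hexamer that nuclear receptors bind, which reads TGACCT on the other strand). The 69 bases of Col9a2 printed hold no match, and its 2 matches to GGGCGG lie 14 and 26 bases before the start, in annotated exon that is not printed.
Col9a2: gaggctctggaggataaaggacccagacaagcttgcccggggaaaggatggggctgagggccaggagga
Col13a1: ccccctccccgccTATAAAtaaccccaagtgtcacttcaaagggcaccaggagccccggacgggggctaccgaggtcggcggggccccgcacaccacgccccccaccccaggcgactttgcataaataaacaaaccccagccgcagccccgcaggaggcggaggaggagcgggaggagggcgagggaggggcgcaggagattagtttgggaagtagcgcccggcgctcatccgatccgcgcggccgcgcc
Col6a5: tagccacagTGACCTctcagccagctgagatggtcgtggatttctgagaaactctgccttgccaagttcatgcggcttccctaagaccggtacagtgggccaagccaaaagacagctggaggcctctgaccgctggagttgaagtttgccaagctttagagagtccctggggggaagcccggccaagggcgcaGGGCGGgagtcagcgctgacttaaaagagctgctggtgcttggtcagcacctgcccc
A promoter was found for 55 of the 76 genes, in 61 windows. AGGTCA occurred in 8 of these 61 windows and in 14.02% of all 32851 promoter windows of 250 bases, GGGCGG in 29 and 32.74%, and TATAAA in 5 and 12.37%. Direct repeats of a hexamer, which could be AGGTCA or else AGTTCA or else GGGTCA or else GGTTCA, with spacers of 1, 2 or 5 bases, the arrangement that RA receptors bind, occurred in 0 of 61 member windows and in 0.1644%, 0.1735% and 0.08828% of all windows. A match is only a description of these letters, and no match says only that the letters are not in this window.

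In the time course the highest collagen was Col18a1 (ENSMUSG00000001435, mm10 chromosome 10, 77052178 to 77166548), the chain of the basement membrane collagen whose C-terminal fragment is endostatin. Its levels were 91.8 to 107 TPM in ESC_0h and 165 to 248 TPM in the 12 other libraries, so that every later library lay above every ESC_0h library. The fibrillar chains stood far lower, with Col5a1, a chain that regulates fibril diameter, the highest by mean over the time course, at 3.88 to 6.95 TPM in the 15 libraries. In noRA_24h Col2a1, with a mean of 4.44 TPM, stood above Col5a1 with 4.30 TPM. Col1a1 and Col1a2, the chains of type I collagen, and Col2a1, the cartilage collagen, had group means of 0.693 to 1.50, 0.418 to 1.45 and 1.36 to 4.44 TPM.

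Among laminin chains Lama5, the broadly expressed alpha chain of many basement membranes, had the highest mean over the time course and reached 66.7 ± 7.10 TPM (SD, n = 3) in ESC_0h. Lamb2 had 38.7 ± 4.02 TPM there. Lama3 and Lamb3, chains of epithelial basement membranes, never exceeded 1.50 and 1.09 TPM in any of the 15 libraries.

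Integrin alpha chains were led by Itga6 (39.9 to 133 TPM) and Itga3 (8.02 to 115 TPM), the alpha subunits of laminin receptors, and by Itga5 (39.6 to 99.5 TPM), that of the fibronectin receptor. Itgb1, the beta subunit shared by all 3, stood at 43.1 to 121 TPM. Itgb7, the beta subunit that pairs with Itga4 or Itgae on lymphocytes, stood at 5.15 to 30.8 TPM, while Itga4 was at most 0.145 TPM and Itgae 0.913 to 2.79 TPM. Type IX collagen was uneven in the same sense, since Col9a2 stood at 7.55 to 40.2 TPM, Col9a3 at 2.04 to 5.57 TPM and Col9a1 at no more than 0.144 TPM. Itgal, the alpha chain that joins Itgb2 in LFA-1 on leukocytes, was at 4.84 to 7.29 TPM, and Itgb2 at no more than 1.43 TPM.

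**Figure D1:**
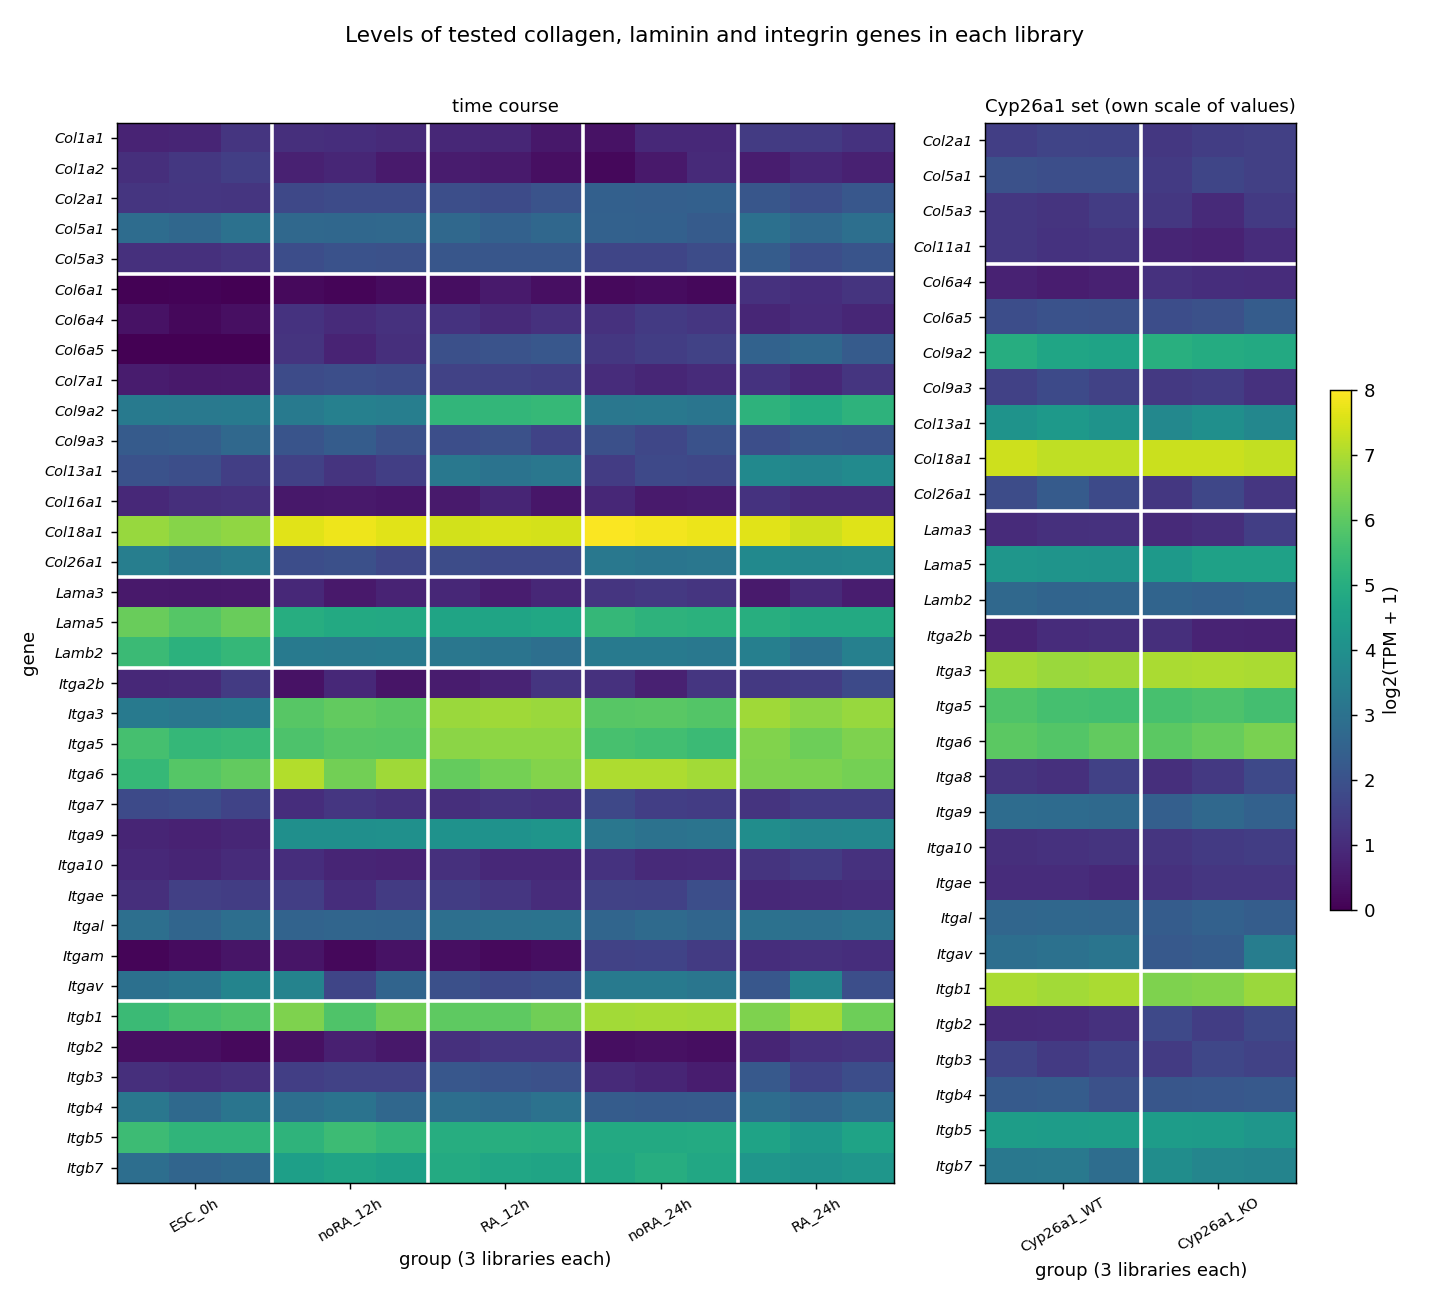
Level of tested collagen, laminin and integrin genes (rows) in each library (columns, 3 per group) as log2(TPM + 1), with the 15 time course libraries on the left and the 6 libraries of the Cyp26a1 set on the right. Col18a1 is the brightest row of both panels, and within the time course Itga3, Itga9 and Itgb7 are lowest in the 3 ESC_0h libraries.

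Of the 40 genes not tested in the time course, 32 stayed below 1 TPM in every library, and Col19a1 and Itgb8 were listed at 0 in all 15. Another 8 reached 1 TPM in 1 or 2 libraries. Just outside the filter were Col6a2 (highest level 1.08 TPM, 2 libraries) and Col27a1 (1.13 TPM, 2 libraries), and just inside were Col16a1 (1.27 TPM) and Col6a1 (1.30 TPM) with 3 libraries each. Col1a2, Col6a1 and Lama3 passed only through the 3 libraries of ESC_0h, RA_24h and noRA_24h, respectively, so that they had to differ from groups where they are lower. Itgb2 passed only through the 3 libraries of RA_12h and 2 of RA_24h, Itgam only through the 6 libraries of noRA_24h and RA_24h, and Col16a1 only through 2 of ESC_0h and 1 of RA_24h. The same limit holds for these 3 genes. Col6a4, Col6a5, Col7a1 and Itga9 passed through later groups and through no ESC_0h library, so that the filter favours their rises from ESC_0h. Counts of the genes that passed are therefore given as descriptions, beside the share of all tested genes that was called.

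In transcript length and GC content the tested genes differed from the rest, with medians of 5134 bases and 57.5% GC against 3083 bases and 50.3% GC over 13937 tested genes that had a value. On mm10 several lie side by side. Col6a2, Col6a1, Col18a1 and Itgb2 follow one another on chromosome 10 within gaps of 85.2, 326 and 364 kb, Col6a6, Col6a5 and Col6a4 on chromosome 9 within gaps of 27.9 and 28.8 kb, and Col1a1 and Itga3 on chromosome 11 are 91.4 kb apart.

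Among the tested collagen, laminin and integrin genes, spread between replicates was smallest for Itga3 and Itga9, with a within-group SD of 0.080 on the log2(TPM + 1) scale for both. It was largest for Itgav (0.62) and Itga2b, the platelet integrin chain (0.28). Itgav, the alpha chain of the vitronectin receptors, is GC-poor (43.5% GC) and had 11.1, 2.16 and 4.97 TPM in the noRA_12h libraries and 3.51, 11.5 and 2.78 TPM in the RA_24h libraries. These libraries also stood apart over all genes. One axis held 67.2% of the within-group variance of the time course, on which noRA_12h libraries 1 and 2 lay at 40.2 and -35.1 and RA_24h library 2 at 49.8. The mean log2 level of the 10% of genes with the lowest GC content, relative to the whole set, was 0.40, -0.65 and -0.26 in noRA_12h and -0.18, 0.82 and -0.34 in RA_24h. It was -0.61 to -0.51 in RA_12h and 0.31 to 0.63 in noRA_24h, so that it also differed between the groups compared. A correction for transcript length and GC content and fits with libraries left out were run beside the main fit. Because the property differs between groups, the correction can also remove group differences of another source. Leaving out 1 library does not remove a shift of a whole group. The part of this property and that of the groups therefore cannot be told apart. Values that change are given beside the results or in the closing section.

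**Figure D2:**
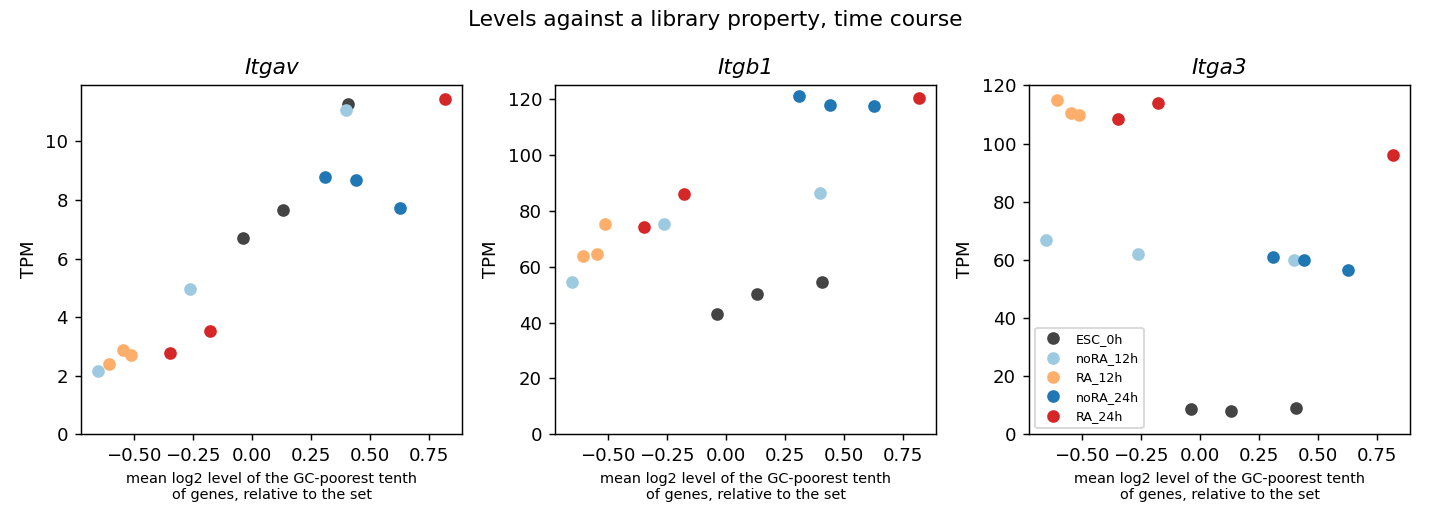
TPM of Itgav, Itgb1 and Itga3 in each time course library (y axis) against the mean log2 level of the 10% of genes with the lowest GC content in that library relative to the set (x axis), with 1 point per library coloured by group. Itgav is at 2.16 TPM in the library furthest left and at 11.5 TPM in the one furthest right, whereas Itga3 stays between 8.02 and 8.92 TPM in ESC_0h and between 96.0 and 115 TPM with RA.

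The noRA groups compared with ESC_0h address what changed once LIF and 2i were removed. The alpha chains Itga3 and Itga9 and the beta chain Itgb7 rose the most among the genes tested here, and the laminin chains Lamb2 and Lama5 fell. Each change below is on the log2(TPM + 1) scale, followed by its standard error (SE), and every adjusted p is from limma with Benjamini-Hochberg adjustment over all genes tested. At 12 h 19 of the 36 genes were called (background 42.5%), of which 13 were higher (background 22% of all genes), 6 were lower (background 20.4%) and 17 did not pass. At 24 h 22 were called (background 51.9%), 13 higher (background 25.4%), 9 lower (background 26.5%) and 14 did not pass. The libraries of the groups did not overlap for any call at either time. Overlap was not counted over all genes, so this is a description only. The median change was 0.07 and 0.01 at the 2 times, against -0.04 and 0.03 over all genes.

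Itga9 (ENSMUSG00000039115, chromosome 9, 118606690 to 118901003), whose product pairs with Itgb1 and binds tenascin and osteopontin, had 0.777, 0.714 and 0.817 TPM in ESC_0h, and its noRA_12h libraries had 14.9, 14.8 and 15.1 TPM. At 24 h without RA it stood at 8.09, 7.07 and 7.50 TPM, between the other groups and overlapping neither. It rose by 3.17 (SE 0.09, adjusted p = 2.35e-11) at 12 h and by 2.27 (SE 0.09) at 24 h, a TPM ratio of 19.4 and 9.81. No ESC_0h library carried Itga9 past the filter, as given above. Itga3 (ENSMUSG00000001507, chromosome 11, 95044474 to 95076801) went from 8.66, 8.02 and 8.92 TPM to 60.0, 66.8 and 62.1 TPM at 12 h and 59.9, 61.2 and 56.5 TPM at 24 h. All 6 later libraries thus lay near the same level, and the rise was 2.75 (SE 0.07) and 2.66 (SE 0.07), with adjusted p = 9.50e-12 and 9.09e-12.

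Itgb7 (ENSMUSG00000001281, chromosome 15, 102215995 to 102231944) rose from 5.74 ± 0.660 TPM to 22.9 ± 1.32 at 12 h and 28.0 ± 2.39 at 24 h. Itgb1 rose by 1.26 (SE 0.18, adjusted p = 4.85e-05) at 24 h, from 49.3 ± 5.75 to 119 ± 2.01 TPM. Its rise at 12 h was 0.52 (SE 0.18, adjusted p = 0.0293), and that call ended without any of ESC_0h libraries 1 and 2 and noRA_12h libraries 1 and 3 (adjusted p = 0.0588 to 0.109), and in a fit of only the groups compared (adjusted p = 0.0638). Itga6 rose from 55.0 ± 13.8 TPM to 109 ± 28.1 and 126 ± 6.04 TPM. Itgam, the alpha chain of Mac-1 on myeloid cells, was at 0.225 ± 0.142 TPM in ESC_0h and 1.88 ± 0.224 TPM in noRA_24h, a difference that the filter favours as given above, while Ptprc, a marker of all leukocytes, stayed at or under 0.102 TPM in noRA_24h. The summed blood markers, nearly all of them Laptm5, ran lower there, at 54.9 to 68.0 TPM against 151 to 178 TPM in ESC_0h. Itgb4, the beta subunit of the hemidesmosome, fell by 0.71 (SE 0.13) at 24 h, from 7.07 ± 1.22 to 3.90 ± 0.103 TPM.

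Lamb2 (ENSMUSG00000052911, chromosome 9, 108479736 to 108490530), a beta chain of basement membranes at synapses and in kidney, stood at 42.5, 34.5 and 39.1 TPM in ESC_0h. In noRA_12h it was at 8.85, 8.47 and 8.59 TPM, and in noRA_24h at 8.77, 8.75 and 8.16 TPM. The 6 later libraries lay close together and far below ESC_0h, a fall of 2.04 (SE 0.13, adjusted p = 3.79e-08) and 2.05 (SE 0.13, adjusted p = 2.58e-08). Lama5 fell by 1.19 (SE 0.09), to 28.6 ± 1.74 TPM, at 12 h and by 0.88 (SE 0.09) at 24 h. The summed level of the 8 laminin chains went from 146 ± 12.1 TPM in ESC_0h to 72.9 ± 2.37 TPM at 12 h and 63.1 ± 4.98 TPM at 24 h. Of the chains left out by the rule, Lama1, the partner of Lamb1 and Lamc1 in the first laminin of the embryo, went from 72.6 ± 6.25 to 7.0 ± 0.740 and 3.37 ± 0.315 TPM. Among all 5 left-out chains, however, 3 rose and 2 fell at 12 h (background 22% and 20.4%) and likewise at 24 h (background 25.4% and 26.5%).

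**Figure D3:**
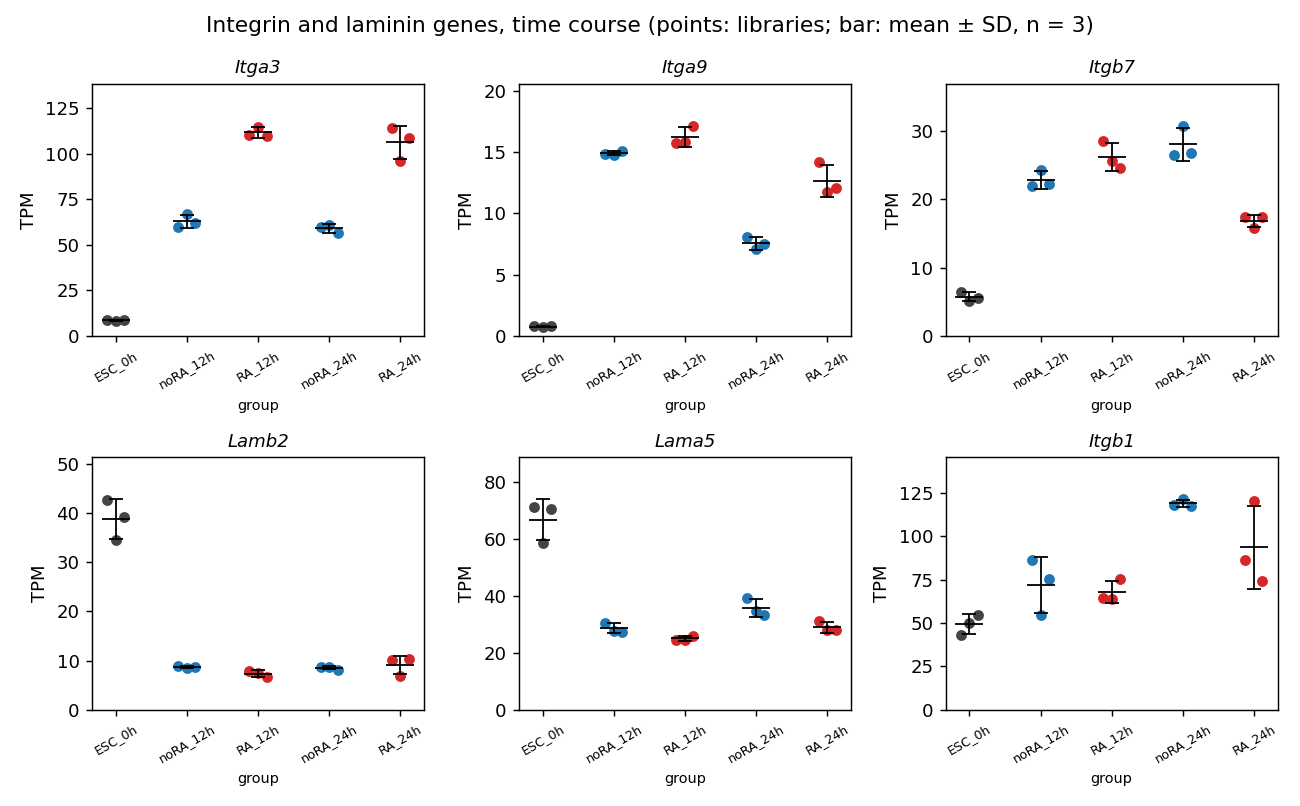
TPM of the integrin genes Itga3, Itga9, Itgb7 and Itgb1 and the laminin genes Lamb2 and Lama5 in the time course, with 1 point per library and bars for the mean and SD of 3 libraries. Itga3 moves from about 8.54 to 63.0 TPM without LIF and 2i and again to 112 TPM with RA at 12 h, and Lamb2 drops from 38.7 to 8.64 TPM at 12 h and stays there.

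Among collagens, Col18a1 rose by 1.04 (SE 0.08) to 206 ± 11.5 TPM at 12 h and by 1.21 (SE 0.08) to 232 ± 15.0 TPM at 24 h. Col7a1, the anchoring fibril collagen, rose by 1.28 (SE 0.11) at 12 h, from 0.494 ± 0.0371 to 2.63 ± 0.157 TPM. The filter favours this rise and that of Col6a5, as given above. Col6a5, a type VI chain, was listed at 0 in all 3 ESC_0h libraries, whereas the noRA_12h libraries had 1.29, 0.742 and 1.10 TPM and the noRA_24h libraries 1.43, 1.71 and 1.98 TPM. A listed 0 need not mean absence in such estimates. Col26a1, a secreted collagen-like protein, had 9.64, 7.72 and 8.94 TPM in ESC_0h and 2.72, 2.88 and 2.28 TPM in noRA_12h, but 8.22, 7.72 and 8.06 TPM in noRA_24h. It fell by 1.43 (SE 0.10, adjusted p = 1.20e-07) at 12 h, and at 24 h it overlapped ESC_0h (difference -0.11, SE 0.10, adjusted p = 0.376).

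Lower and weakly expressed at 12 h were Itga7, a laminin-binding alpha chain of muscle (-0.60, SE 0.12), Col1a2 (-0.55, SE 0.18) and Col16a1 (-0.54, SE 0.13), all with means of at most 2.39 TPM and the last 2 with the limit given above for the filter. The call of Col1a2 ended without noRA_12h library 3 (adjusted p = 0.0968), with a pseudocount of 0.1 (adjusted p = 0.100) and with the correction for length and GC content (adjusted p = 0.0544). At 24 h Col1a2 was again lower (-0.73, SE 0.18), and so was Col9a3 (-0.56, SE 0.15), which shares 234 bases on the opposite strand with the more abundant Tcfl5 (mean 50.9 TPM against 3.26), so that its level is uncertain. Col5a1 was at 6.16 ± 0.784 TPM in ESC_0h and 5.49 ± 0.0753 TPM at 12 h (difference -0.14, adjusted p = 0.357), and it fell by 0.43 (SE 0.11) at 24 h, to 4.30 ± 0.370 TPM. With the correction for length and GC content, the calls of Col9a3 and Col5a1 at 24 h ended (adjusted p = 0.119 and 0.445), and the split there was 17 higher and 6 lower (25.7% and 29.0% of all genes under that correction). The difference of Col5a1 at 12 h was then 0.069.

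Genes that act with these proteins moved both ways after withdrawal. Of 25 tested genes of collagen processing (prolyl and lysyl hydroxylases, chaperones, propeptide proteases and lysyl oxidases), 4 rose and 9 fell at 12 h and 7 rose and 11 fell at 24 h. Of all genes tested, 22% rose and 20.4% fell at 12 h and 25.4% rose and 26.5% fell at 24 h, which is the background for each list here. P4ha2, a catalytic subunit of collagen prolyl 4-hydroxylase, fell by 2.20 (SE 0.08) at 12 h, from 44.8 to 9.01 TPM. Of 16 other matrix ligands and basement membrane partners, 5 rose and 5 fell at 12 h, and 5 rose and 6 fell at 24 h. Fn1, which encodes fibronectin, the ligand of the receptor with Itga5, fell by 1.84 (SE 0.09) at 24 h, from 610 to 169 TPM, and Spp1, which encodes osteopontin, fell by 1.73 (SE 0.42) at 12 h. Spp1 had 311, 406 and 440 TPM in ESC_0h and 227, 72.6 and 90.3 TPM in noRA_12h, and without noRA_12h library 1, left out after seeing the data, the fall was 2.22 and the noRA_12h mean 81.4 TPM. Ccn2, a matricellular ligand of integrins, rose by 2.03 (SE 0.09) at 12 h, and Thbs1, thrombospondin 1, by 1.90 (SE 0.15) at 24 h. In the integrin adhesion complex 13 of 28 rose and 4 fell at 12 h, and 12 rose and 9 fell at 24 h. Of 17 proteases and inhibitors 4 rose and 3 fell at 12 h, and 6 rose and 4 fell at 24 h, with Timp3, a matrix-bound inhibitor of metalloproteases, rising by 2.45 (SE 0.13) and Mmp25, a membrane-anchored metalloprotease, by 1.68 (SE 0.11) at 24 h.

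RA_12h against noRA_12h and RA_24h against noRA_24h compare cells with and without RA at each time. If LIF and 2i were kept in the RA cells, which the labels leave unclear, their part and that of RA cannot be told apart. The noRA groups also served in the withdrawal comparisons, so the 2 kinds of change share libraries. With RA at 12 h the collagens Col9a2, Col13a1 and Col6a5 and the integrins Itga3, Itga5, Itgal, Itgb2 and Itgb3 were higher, which is 8 of 36 genes (background 10.2%, or 17.4% in either direction). None was lower by limma (0 of 36, background 7.19%), and 4 were lower and 8 higher at an unadjusted p below 0.05. The share of all genes at this unadjusted threshold was not counted. At 24 h 27 genes were called (background 35.2%), 17 higher (background 22.8%) and 10 lower (background 12.5%), and 9 did not pass. The libraries did not overlap for any of these calls, which is a description only, since overlap was not counted over all genes. The median change was 0.01 at 12 h and 0.22 at 24 h, against -0.01 and 0.02 over all genes. At 24 h the higher and lower genes were 3 and 1 of 5 fibrillar chains, 6 and 2 of 10 other collagens, 1 and 2 of 4 laminin chains, 4 and 3 of 11 integrin alpha chains and 3 and 2 of 6 beta chains. Of the 8 endoderm markers, 3 rose and 5 did not pass with RA at 12 h and all 8 rose at 24 h, and summed trophoblast markers (6 genes) ran at 89.0 to 114 TPM in RA_24h against 46.6 to 50.5 TPM in noRA_24h. The part of these markers in the results was not tested.

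The counts at 24 h moved with the libraries. Without RA_24h library 1, 11 genes were higher, and without noRA_24h library 3, 6 were lower. The share of all genes called in these fits is not given here, so whether all genes moved alike is not shown. With the correction for length and GC content the split was 12 higher and 12 lower at 24 h (18.3% and 21.5% of all genes under it), and 8 higher and 2 lower at 12 h (11.7% and 14.8%).

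Col9a2 (ENSMUSG00000028626, chromosome 4, 121039385 to 121055322), a chain of the fibril-associated type IX collagen, had 8.92, 10.2 and 9.83 TPM in noRA_12h, and with RA for 12 h it had 37.7, 38.1 and 40.2 TPM. At 24 h it was at 8.07, 8.18 and 7.55 TPM without RA and at 35.3, 29.4 and 35.3 TPM with it. The groups were well apart at both times, with 8.47 to 8.85 TPM in ESC_0h, and the rise was 1.90 (SE 0.09, adjusted p = 8.06e-09) and 1.94 (SE 0.09, adjusted p = 1.84e-09). Of its partner chains, Col9a3 did not pass (-0.30, SE 0.15, adjusted p = 0.226 at 12 h and 0.13, SE 0.15, adjusted p = 0.516 at 24 h) and Col9a1 stayed at or under 0.144 TPM.

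Col13a1 (ENSMUSG00000058806, chromosome 10, 61838236 to 61979108), a transmembrane collagen of cell junctions, had 1.94, 1.31 and 1.80 TPM in noRA_12h and 8.27, 7.30 and 8.08 TPM in RA_12h. At 24 h it had 1.70, 2.43 and 2.25 TPM without RA and 13.0, 11.4 and 13.3 TPM with RA. Every RA library lay above every library without RA, and the rise was 1.74 (SE 0.15, adjusted p = 3.74e-06) and 2.12 (SE 0.15, adjusted p = 2.22e-07). The difference between the effects was 0.39 (SE 0.22, adjusted p = 0.354).

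Col6a5 rose by 1.03 (SE 0.13) at 12 h, to 2.86, 3.17 and 3.46 TPM, and by 1.06 (SE 0.13) at 24 h, to 4.70, 5.31 and 3.92 TPM, from the levels without RA given above. Its neighbour Col6a4, 28.8 kb away, did not pass at 12 h (-0.01, SE 0.11, adjusted p = 0.960) and fell by 0.34 (SE 0.11, adjusted p = 0.0319) at 24 h, from 1.40 to 0.891 TPM. Col6a1, a core chain of type VI collagen, was at 0.140, 0.206 and 0.125 TPM in noRA_24h and at 1.23, 1.06 and 1.30 TPM in RA_24h. It rose by 0.92 (SE 0.11, adjusted p = 1.79e-05) at 24 h, with the limit given above that only this group carried it past the filter. The adjacent Col6a2, the chain that assembles with Col6a1, was not tested and was listed at 0.154, 0 and 0.186 TPM without RA and 1.08, 1.04 and 0.987 TPM with RA at 24 h. Col6a3, the other core chain, stayed at or under 0.256 TPM in every time course library.

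Itga3 rose a further 0.82 (SE 0.07, adjusted p = 3.52e-06) at 12 h, to 110, 115 and 110 TPM, and stood 0.83 (SE 0.07, adjusted p = 1.27e-06) higher at 24 h, at 114, 96.0 and 109 TPM. None of the 6 libraries with RA came within the range of the 6 without it. Itga5 had 96.3, 98.3 and 99.5 TPM in RA_12h against 53.7, 60.2 and 58.2 TPM in noRA_12h, a rise of 0.76 (SE 0.09, adjusted p = 3.85e-05). Itgb2, the leukocyte integrin beta subunit, was at 1.33 ± 0.152 TPM in RA_12h against 0.449 ± 0.162 TPM in noRA_12h. The RA groups alone carried it past the filter, so these levels are a description. All blood markers but Laptm5 had means under 1 TPM in both RA groups, and Laptm5 did not pass at either time. Itgb3, which pairs with Itgav or Itga2b, had 3.66, 2.05 and 2.70 TPM in RA_24h and 0.944, 0.757 and 0.566 TPM in noRA_24h. The groups did not overlap, and its rise at 24 h was 1.10 (SE 0.14, adjusted p = 5.82e-05).

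**Figure D4:**
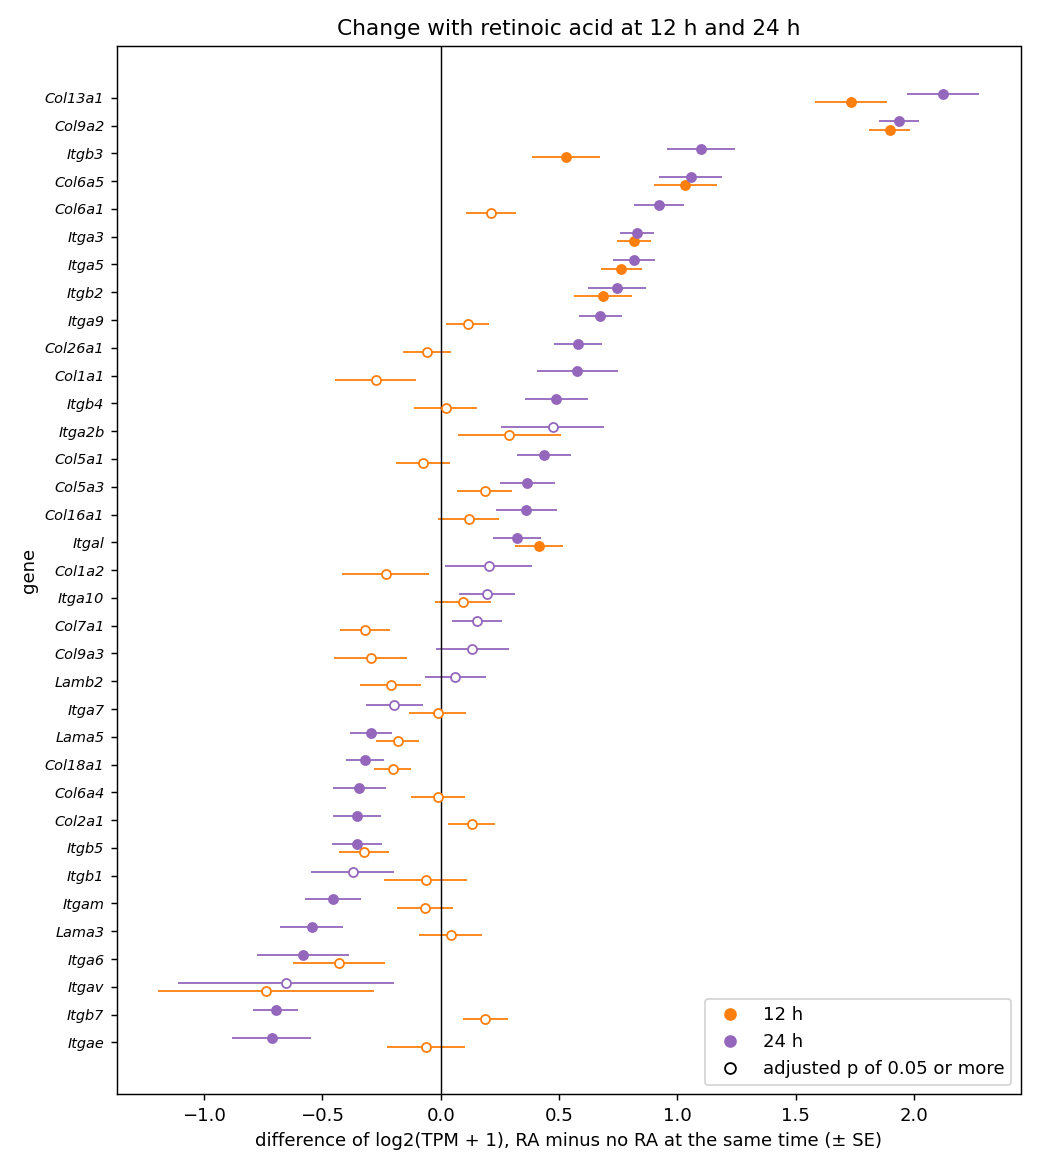
Difference in log2(TPM + 1) between RA and no RA for the tested genes (y axis), at 12 h and at 24 h, with bars of 1 SE and open symbols where the limma adjusted p was 0.05 or more. Col13a1 and Col9a2 lie furthest right at both times, and Itgb7 lies at 0.19 at 12 h and at -0.70 at 24 h.

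Falls with RA passed at 24 h. Itgb7 had 26.5, 30.8 and 26.8 TPM in noRA_24h and 17.4, 15.9 and 17.4 TPM in RA_24h, which is a fall of 0.70 (SE 0.09, adjusted p = 8.18e-05) to a level between ESC_0h and noRA_24h. Itgae, which binds E-cadherin together with Itgb7, had 2.02, 1.92 and 2.79 TPM without RA and 0.913, 0.940 and 1.04 TPM with RA, a fall of 0.71 (SE 0.17, adjusted p = 0.00471). It shares 2810 bases on the opposite strand with Haspin (mean 24.5 TPM), so that its level is uncertain. Lama3 fell by 0.55 (SE 0.13, adjusted p = 0.00588), from 1.40 ± 0.0862 to 0.655 ± 0.233 TPM, after passing the filter only through noRA_24h. Itgam fell by 0.45 (SE 0.12), from 1.88 ± 0.224 to 1.10 ± 0.0639 TPM, a call that ended with a pseudocount of 0.1 (adjusted p = 0.144). Itgb5, the beta subunit of a vitronectin receptor, fell by 0.35 (SE 0.11, adjusted p = 0.0193), from 28.2 ± 0.479 to 22.0 ± 3.12 TPM. For Itgb5 the call was lost on leaving out noRA_24h library 3 (adjusted p = 0.0583), with FPKM (adjusted p = 0.0596), with median-of-ratios scaling (adjusted p = 0.0532) or in a fit of only the groups compared (adjusted p = 0.0777).

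Itga6 had 130, 129 and 119 TPM in noRA_24h and 86.0, 85.7 and 79.2 TPM in RA_24h, a fall of 0.58 (SE 0.19, adjusted p = 0.0327). The groups did not overlap, but the call ended without any one of noRA_24h libraries 1, 2 and 3 and RA_24h libraries 1 and 3 (adjusted p = 0.0576 to 0.0947) and with no filter (adjusted p = 0.0513). At 12 h the difference of Itga6 was -0.43 (SE 0.19, adjusted p = 0.161), and without noRA_12h library 2 it was -0.65 (adjusted p = 0.0211). Itgb1 stood at 86.1, 120 and 74.3 TPM in RA_24h and at 118, 121 and 117 TPM in noRA_24h, and did not pass (-0.37, SE 0.18, adjusted p = 0.119). Without RA_24h library 2 the difference was -0.57 (adjusted p = 0.0101), and with the correction for length and GC content it was -0.15 (adjusted p = 0.0466). Itgav likewise did not pass (-0.65, SE 0.46, adjusted p = 0.279) and reached -1.19 (adjusted p = 0.0234) without that library.

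The highest collagen and laminin chains did not pass with RA at 12 h. Col18a1 was at 179 ± 2.47 against 206 ± 11.5 TPM at 12 h (-0.20, SE 0.08, adjusted p = 0.103, or 0.0192 with the correction for length and GC content) and fell by 0.32 (SE 0.08, adjusted p = 0.00667) at 24 h, from 232 ± 15.0 to 186 ± 18.2 TPM. It shares 8825 bases on the opposite strand with Slc19a1 (mean 21.5 TPM against 181). Lama5 was at 25 ± 0.804 against 28.6 ± 1.74 TPM at 12 h (-0.18, SE 0.09, adjusted p = 0.199) and fell by 0.30 (SE 0.09, adjusted p = 0.0210) at 24 h, from 35.8 ± 3.15 to 29.0 ± 1.88 TPM. The call of Lama5 ended without noRA_24h library 1 or RA_24h library 3 (adjusted p = 0.0975 and 0.0722) and in a fit of only the groups compared (adjusted p = 0.0738). Col5a1 was not past the threshold at 12 h (-0.08, SE 0.11, adjusted p = 0.686) and rose by 0.44 (SE 0.11, adjusted p = 0.00927) at 24 h, to 6.18 ± 0.699 TPM, which did not pass in a fit of only the groups compared (adjusted p = 0.0567). Itgb1 at 12 h stood at 67.9 ± 6.47 against 72.0 ± 16.1 TPM (-0.06, SE 0.18, adjusted p = 0.837). With the correction for length and GC content these 12 h differences were 0.021 for Lama5, 0.055 for Col5a1 and 0.11 for Itgb1, and none passed. Of the left-out partner chains, all 5 rose with RA at 24 h (background 22.8% of all genes). Lama1 went from 3.37 ± 0.315 to 34.9 ± 2.41 TPM and Col4a2 from 13.8 ± 0.723 to 37.2 ± 3.89 TPM. At 12 h Lamc1 and Lamb1 fell (background 7.19%) and the other 3 did not pass.

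Among interacting genes, 10 of 25 collagen processing genes rose with RA at 24 h, 2 fell and 13 did not pass, against 5, 1 and 19 at 12 h. The background for each list is 22.8% higher and 12.5% lower at 24 h, and 10.2% and 7.19% at 12 h. Serpinh1, which encodes the collagen chaperone HSP47, rose by 1.98 (SE 0.10, adjusted p = 1.01e-08) at 24 h, from 17.2 to 71.3 TPM, and Bmp1, a protease that trims procollagen, rose by 2.04 (SE 0.14) at 12 h, from 4.97 to 23.5 TPM. Of 16 other ligands 10 rose, 4 fell and 2 did not pass at 24 h, against 1, 4 and 11 at 12 h. In the adhesion complex 9 of 28 rose, 7 fell and 12 did not pass at 24 h, against 4, 5 and 19 at 12 h, and Ptk2b, a focal adhesion kinase family member, fell by 0.97 (SE 0.10) at 12 h and by 2.13 (SE 0.10) at 24 h. Of 17 proteases and inhibitors 5 rose, 4 fell and 8 did not pass at 24 h, against 2, 2 and 13 at 12 h. Mmp9, a type IV collagenase, went from 1.43 to 10.6 TPM at 12 h and from 3.35 to 35.2 TPM at 24 h. Plat, tissue plasminogen activator, rose by 1.76 (SE 0.15) at 24 h and Timp2, a metalloprotease inhibitor, by 1.12 (SE 0.14) at 12 h.

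The RA effect itself differed between 12 h and 24 h for 4 of 36 genes (background 6.85%). It was larger at 24 h for Col6a1, Col26a1 and Itga9 (3 of 36 genes, background 4.17%) and lower at 24 h for Itgb7 (1 of 36, background 2.68%), and 32 did not pass. Itgb7 stood at 28.5, 25.6 and 24.6 TPM in RA_12h against 21.9, 24.4 and 22.3 TPM in noRA_12h (0.19, SE 0.09, adjusted p = 0.210), and the change of its RA effect was -0.89 (SE 0.13, adjusted p = 0.00136). For Col6a1 the change was 0.71 (SE 0.15, adjusted p = 0.0115, or 0.110 with a pseudocount of 0.1). Only RA_24h carried Col6a1 past the filter, so that the filter favours its larger effect at 24 h and its count is a description. For Col26a1 the change was 0.64 (SE 0.14, adjusted p = 0.0170). Col26a1 had 2.65, 2.40 and 2.39 TPM in RA_12h and 12.8, 11.9 and 12.7 TPM in RA_24h, above the 7.72 to 8.22 TPM of noRA_24h, and rose by 0.58 (SE 0.10) at 24 h. Itga9 had 15.8, 15.8 and 17.2 TPM in RA_12h and 14.2, 11.8 and 12.1 TPM in RA_24h, against 7.07 to 8.09 TPM in noRA_24h. The change of its RA effect was 0.56 (SE 0.13, adjusted p = 0.0190), and the call ended without RA_12h library 1 or 2, noRA_24h library 2 or RA_24h library 1 (adjusted p = 0.0519 to 0.0560), with the correction for length and GC content (adjusted p = 0.0519) or with size factors by median of ratios (adjusted p = 0.0624). Without RA_24h library 1, 1 gene had a larger effect at 24 h, and without RA_24h library 2, 5 had a larger and 2 a lower one. These counts also stand without the share of all genes in the same fits. With the correction for length and GC content the split was 2 larger and 6 lower (4.94% and 6.07% of all genes under it), and Col18a1 (-0.34, adjusted p = 0.0180) and Lama5 (-0.40, adjusted p = 0.0320) were called, which otherwise had changes of -0.12 (adjusted p = 0.652) and -0.11 (adjusted p = 0.715). The change of Col5a1 did not pass (0.51, adjusted p = 0.0797), but it did without the trend (adjusted p = 0.0476) and without RA_24h library 2 (0.60, adjusted p = 0.0344), also together with noRA_12h library 2 (0.61, adjusted p = 0.0481). Of the interacting genes, the RA effect was larger at 24 h by 1.60 (SE 0.15) for Serpinh1, 1.35 (SE 0.21) for Plat and 1.04 (SE 0.18) for Hspg2, which encodes perlecan, and for Ptk2b it changed by -1.16 (SE 0.15).

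The knockout comparison addresses what loss of Cyp26a1 changed in cells given RA for 24 h. In Cyp26a1_KO 3 of 31 genes were higher (background 3.34%, or 9.99% in either direction), among them Itgb7 and Itgb2, and 28 did not pass. None was lower by limma (0 of 31, background 6.65%), and 6 were higher and 7 lower at an unadjusted p below 0.05. The share of all genes at this unadjusted threshold was not counted. The median change was -0.0024 against -0.05 over all genes. Endoderm markers were lower in the knockout, as given above, and all 5 left-out chains fell, for instance Lama1 from 54.0 ± 2.43 to 21 ± 0.651 TPM and Col4a1 from 65.3 ± 2.46 to 28.2 ± 0.576 TPM. Summed blood markers ran at 41.5 to 46.9 TPM in the wild type and 113 to 126 TPM in the knockout, with Laptm5 the one marker of 5 above 1 TPM and Ptprc and Cd48 listed at 0 in all 6 libraries. The part of the endoderm and Laptm5 differences in these results was not tested.

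Itgb7 had 8.27, 8.47 and 6.30 TPM in the wild type and 14.3, 11.7 and 11.1 TPM in the knockout, a rise of 0.63 (SE 0.15, adjusted p = 0.0442). Itgb2 had 0.943, 0.979 and 1.23 TPM against 2.40, 1.75 and 2.34 TPM, a rise of 0.62 (SE 0.14, adjusted p = 0.0371). Neither pair of groups overlapped, but both calls ended without any one library other than Cyp26a1_KO library 3 (adjusted p = 0.0524 to 0.155). Itgb7 also lost its call with no filter (adjusted p = 0.0709) and with FPKM (adjusted p = 0.0683). Itgb2 reached 1 TPM in 4 of the 6 libraries only, with 1.23 TPM the one such level in the wild type, so that the filter favours its rise.

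Libraries of the same replicate number deviated alike in this set (r of deviations 0.19 to 0.54). Wild-type library 1 with knockout library 2 (r 0.27) and wild-type library 2 with knockout library 1 (r 0.23) did so too. The labels give no pairing. With replicate number as a block Itgb1 was also lower (-0.37, adjusted p = 0.0389). Without the block Itgb1 had adjusted p = 0.0613, at 125, 119 and 126 TPM in the wild type and 87.0, 90.6 and 110 TPM in the knockout. Itgb1 was also called with FPKM (adjusted p = 0.0353) and with the correction for length and GC content (adjusted p = 0.0124). Cyp26a1_KO library 3, the highest knockout library for Itgb1, stood apart over all genes, at 36.4 on an axis with 70.1% of the within-group variance. Itgav had 3.71, 3.97 and 9.50 TPM in the knockout and 6.35, 6.86 and 7.71 TPM in the wild type (-0.34, adjusted p = 0.579). Without Cyp26a1_KO library 3 the differences were -0.47 (adjusted p = 0.00110) for Itgb1 and -0.72 (adjusted p = 0.00779) for Itgav. With the correction for length and GC content 5 genes were higher and 1 lower (7.43% and 6.93% of all genes under it).

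**Figure D5:**
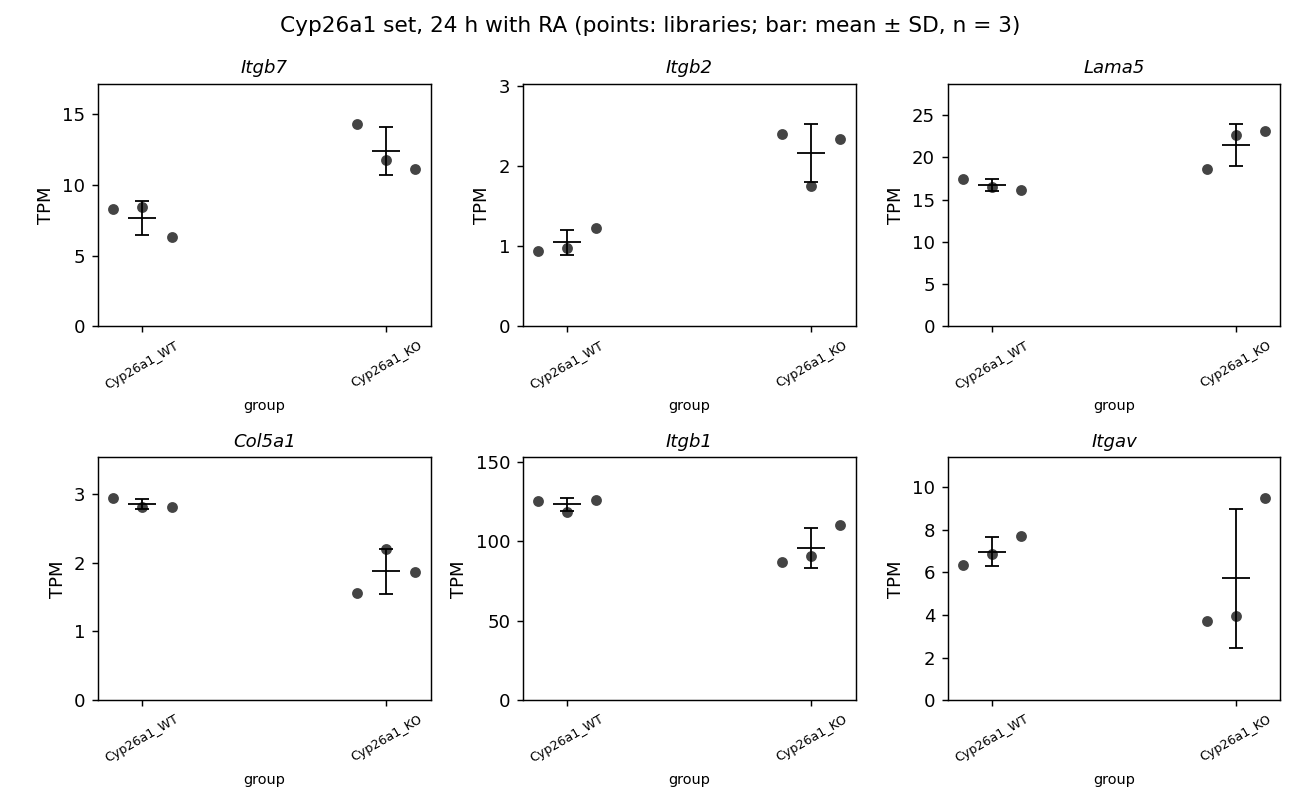
TPM of Itgb7, Itgb2, Lama5, Col5a1, Itgb1 and Itgav in the Cyp26a1 set, with 1 point per library and bars for the mean and SD of 3 libraries. Itgb7 is at 6.30 to 8.47 TPM in the wild type and at 11.1 to 14.3 TPM in the knockout, and for Itgav the knockout libraries spread from 3.71 to 9.50 TPM around the wild type.

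Col9a2, Col13a1, Col6a5 and Itga3, which were higher with RA in the time course, did not pass in the knockout. Col9a2 was at 29.7 ± 2.02 against 26.5 ± 3.64 TPM in the wild type (0.17, SE 0.11, adjusted p = 0.424), and Col13a1 at 13.0 ± 1.61 against 17.2 ± 1.70 TPM (-0.38, SE 0.12, adjusted p = 0.0977). Col6a5 was at 3.23 ± 0.657 against 2.89 ± 0.181 TPM (0.11, SE 0.14, adjusted p = 0.724). Itga3, with Itgal the least variable of the collagen, laminin and integrin genes tested in this set, was at 126 ± 2.31 against 115 ± 4.88 TPM (0.13, SE 0.05, adjusted p = 0.169). With the correction for length and GC content Itga3 was called (0.24, adjusted p = 0.0116). Of the highest chains, Col18a1 stood at 160 ± 6.23 against 155 ± 9.20 TPM (0.05, SE 0.06, adjusted p = 0.703) and Col5a1 at 1.87 ± 0.321 against 2.85 ± 0.0775 TPM (-0.43, SE 0.12, adjusted p = 0.0801, or 0.0440 without the intensity trend). Itga8, the nephronectin receptor chain, varied widely, from 1.12 to 2.38 TPM in the knockout.

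Around these genes, 2 of 23 tested collagen processing genes rose in the knockout, 5 fell and 16 did not pass, beside a background of 3.34% higher and 6.65% lower for each list. Serpinh1 fell by 1.03 (SE 0.07, adjusted p = 9.76e-04), from 162 to 79.1 TPM, and Loxl2, a lysyl oxidase that crosslinks collagen, fell by 1.03 (SE 0.13), from 8.23 to 3.55 TPM. Of 14 other ligands 0 rose by limma (2 at an unadjusted p below 0.05, again without a count over all genes), 1 fell and 13 did not pass. In the adhesion complex 1 of 27 rose, 3 fell and 23 did not pass, and of 15 proteases and inhibitors 5 fell and 10 did not pass. Mmp15, a membrane-type metalloprotease, fell by 1.12 (SE 0.10, adjusted p = 0.00240), from 10.4 to 4.24 TPM, and Timp2 by 1.05 (SE 0.17), from 3.24 to 1.05 TPM. The call of Timp2 ended without any one of the Cyp26a1_WT libraries or Cyp26a1_KO library 2 (adjusted p = 0.0527 to 0.0744), a setting also chosen after seeing the data.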

How the data were processed

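Gene abundance tables, 1 per library, were used. The submitters' processing notes name HISAT2, StringTie and mm10. Versions and strand setting are not given in the sources consulted. The columns of coverage (signal, mean read depth per base), FPKM and TPM are the authors' values, per the file headers, and no read counts were used. The most common ratio of coverage over FPKM in a library gave its aligned gigabases, the only measure of depth here. Of the genes used for it, 12.3% to 13.5% per time course library and 61.7% to 62.9% per Cyp26a1 set library lay at that ratio. The time course values are therefore rough estimates.

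TPM of rows with the same gene ID were summed. Tests used log2(TPM + 1) of the genes that reached 1 TPM in 3 or more libraries of a set, a scale that understates changes of low genes, with limma 3.58.1 in R 4.3.3 (eBayes with an intensity trend, Benjamini-Hochberg over all genes tested, calls below 0.05). The 15 time course libraries shared 1 fit and the 6 of the Cyp26a1 set another, and levels were never compared between them, since the tables differ in annotation and scale. Groups came from the sample titles.

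The genes and lists were chosen with earlier results of these data known. Named were up to 6 called genes per direction with libraries that did not overlap, the highest gene of each role, the 2 most and 2 least variable, and up to 4 of the pathway genes per comparison. Other genes given as neighbours or partners, and those that gained a call under another setting, were chosen after their values were seen. A gene counted here is not reported by name. Alternatives were FPKM, median-of-ratios scaling, a pseudocount of 0.1, dropping the filter or raising it to a mean of 5 TPM, no trend, replicate block, a length and GC correction (splines with 4 degrees of freedom, GENCODE M21, 99.9% and 98.0% of genes matched), only the groups compared and each library left out. Libraries of the same replicate number deviated alike in the Cyp26a1 set (r of deviations 0.19 to 0.54). In the time course they did not, with a lowest r of -0.53 between groups compared and of -0.84 between noRA_12h and RA_24h. Some libraries of unlike number in the Cyp26a1 set also deviated alike (r up to 0.27), and the labels give no pairing. The fits were tested on simulated data. Figures used Python 3.11.15, pandas 2.3.3, numpy 2.4.6 and matplotlib 3.10.9.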

Additional observations from a re-analysis of the deposited data

Results flagged for a closer look

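The effect of RA differed between 12 h and 24 h by a test of the difference itself (limma, adjusted over all genes) for 4 genes, with n = 3 libraries per group. On the log2(TPM + 1) scale the change of the RA effect was 0.71 for Col6a1 (adjusted p = 0.0115), 0.64 for Col26a1 (adjusted p = 0.0170), 0.56 for Itga9 (adjusted p = 0.0190) and -0.89 for Itgb7 (adjusted p = 0.00136). Col6a1 passed the filter only through RA_24h, and its call ended with a pseudocount of 0.1 (adjusted p = 0.110). The call of Itga9 ended without any one of RA_12h library 1 or 2, noRA_24h library 2 and RA_24h library 1 (adjusted p = 0.0519 to 0.0560), with size factors by median of ratios (adjusted p = 0.0624) and with the correction for length and GC content (adjusted p = 0.0519). For Itgb7 the 3 RA_12h libraries lay above the 3 noRA_12h libraries and the 3 RA_24h libraries below the 3 noRA_24h libraries.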

How the results depend on the processing

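Of the counts of called genes under other settings, 164 lay within 1.5 times the reported count or matched it and 36 did not. Except for the length and GC correction, the share of all genes called under each setting is not given here. The counts in this section are therefore descriptions only, since all genes may have moved alike. For single genes, 1131 values kept direction and call, 45 lost the call, 21 gained it and 7 reversed.

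With no filter, 1 gene was lower with RA at 12 h and 3 had a lower RA effect at 24 h. With a mean of at least 5 TPM, which leaves fewer genes to test, 7 were higher and 3 lower after withdrawal at 12 h, 6 higher at 24 h, 5 higher and 1 lower with RA at 12 h, and 10 higher and 5 lower with RA at 24 h. With FPKM, where 25 and 19 genes were tested, 5 were lower with RA at 24 h and 1 was higher and 1 lower in the knockout. Without the trend 1 was lower with RA at 12 h, 6 had a larger and 2 a lower RA effect at 24 h, and 1 was lower in the knockout. With the length and GC correction 2 were lower with RA at 12 h, 6 had a lower RA effect at 24 h, and 5 were higher and 1 lower in the knockout. In a fit of only the groups compared, 11 were higher and 6 lower with RA at 24 h. Without noRA_12h library 2 and RA_24h library 2 together, a setting chosen after seeing the data, 3 were lower with RA at 12 h.

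Leaving out 1 library at a time gave 12 to 13 higher and 5 to 8 lower at 12 h and 12 to 13 higher and 7 to 9 lower at 24 h after withdrawal. It gave 7 to 8 higher and 0 to 1 lower with RA at 12 h, 11 to 16 higher and 6 to 12 lower with RA at 24 h, 1 to 5 larger and 1 to 2 lower RA effects, and 1 to 3 higher and 0 to 2 lower in the knockout.

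Values that reversed belong to differences that had not passed. With the length and GC correction Col5a1 had 0.069 after withdrawal at 12 h and 0.055 with RA at 12 h, Lama5 0.021 and Itgb1 0.11 with RA at 12 h. Leaving out 1 library at a time, Itgb1 with RA at 12 h ran from -0.25 to 0.078 (without noRA_12h library 2 and 1), and the change of the RA effect of Itga6 from -0.31 to 0.067 (without noRA_12h library 1 and 2), or 0.050 without noRA_12h library 2 and RA_24h library 2. The cause was not tested.

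With the replicate block, whose numbers share only a number in the time course, 12 genes were higher and 6 lower after withdrawal at 12 h, 13 and 9 at 24 h, 8 and 0 with RA at 12 h and 16 and 9 with RA at 24 h, and 3 RA effects were larger and 1 lower. The rise of Itgb1 at 12 h then had adjusted p = 0.0531. In the knockout the block gave 3 higher and 1 lower, and it changed no other call there among the genes named. Depth is known only as aligned gigabases, so genes near 1 TPM, such as Col6a1, Itgb2 and Lama3, rest on few reads whose number is not known here.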
